A study of Mus musculus with 5 samples.

Results

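The cytosolic ribosomal protein genes encode the proteins of the 40S and 60S ribosomal subunits. They were taken from an RNA-sequencing table of 54532 genes by symbol (Rpl or Rps with a number and at most 1 of the letters a, x or l, the stalk genes Rplp0 to Rplp2, and Rpsa), with a mean of at least 100 normalized counts over 5 libraries. The rule found 77 genes, 32 of the small and 45 of the large subunit. The rule read only the mean over all libraries and not the comparison between genotypes, but the gene family was chosen with earlier results of these data known. The libraries came from neurospheres, floating clusters of neural stem cells and their progeny, grown from the hippocampus of C57BL/6 mice at postnatal day 0 with B27 and with EGF and FGF-2 at 20 ng/ml each, and collected on day 7. The 3 heterozygous libraries had the genotype hGFAPCre+, Arid1b flox/+, and the 2 littermate control libraries had the genotype hGFAPCre+, Arid1b+/+. Both groups thus carry the Cre transgene, whose human GFAP promoter is active in neural progenitors and astrocytes, and the controls lack the floxed allele. Arid1b encodes a DNA-binding subunit of BAF complexes, which remodel nucleosomes, and the comparison asks which transcripts differ when 1 copy is floxed.

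Each ribosome joins a small subunit, which reads the mRNA, to a large subunit, which forms the peptide bonds. Most of the proteins are needed in equal numbers, and their mRNAs begin with a 5′ terminal oligopyrimidine (TOP) stretch of C and T bases, through which mTORC1 and the RNA-binding protein Larp1 control their translation together. Ribosome output is high in dividing progenitors. Free Rpl5 and Rpl11, with the 5S rRNA, bind and inhibit Mdm2, the ligase that degrades p53.

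Start-site sequences are shown for 8 members: 5 of the large-subunit genes whose groups did not overlap, the diverging pair Rps27 and Rps27l, and Rps6, the substrate of the S6 kinases. They come from the RefSeq promoter table (GRCm38.p6), which held 67 windows for 56 members and none for 21. Rpl10a and Rps27l have 2 windows each, and only the upstream one is shown. Each line gives 80 bases before and 20 bases from the RefSeq start site onward, on the coding strand, with the longest run of C and T bases overlapping the 20 bases on either side of the start in capitals.
Rpl5, chr5:107900448-107900547, plus strand: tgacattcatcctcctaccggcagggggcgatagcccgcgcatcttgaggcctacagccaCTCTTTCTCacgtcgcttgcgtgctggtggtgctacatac
Rpl27a, chr7:109519115-109519214, plus strand: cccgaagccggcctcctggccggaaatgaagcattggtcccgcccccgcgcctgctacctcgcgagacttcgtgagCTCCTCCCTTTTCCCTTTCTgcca
Rpl13a, chr7:45128726-45128825, minus strand: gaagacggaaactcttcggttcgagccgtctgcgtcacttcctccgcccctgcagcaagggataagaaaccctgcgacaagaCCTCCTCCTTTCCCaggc
Rpl28, chr7:4792885-4792984, plus strand: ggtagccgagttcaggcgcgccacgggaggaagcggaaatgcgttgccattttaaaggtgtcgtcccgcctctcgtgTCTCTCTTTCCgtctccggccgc
Rpl10a, chr17:28328391-28328490, plus strand: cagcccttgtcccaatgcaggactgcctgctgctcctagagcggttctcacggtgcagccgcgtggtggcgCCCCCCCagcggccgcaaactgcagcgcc
Rps27l, chr9:66946006-66946105, plus strand: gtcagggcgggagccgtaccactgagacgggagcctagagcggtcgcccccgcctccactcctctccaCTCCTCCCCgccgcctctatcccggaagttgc
Rps27, chr3:90213629-90213728, minus strand: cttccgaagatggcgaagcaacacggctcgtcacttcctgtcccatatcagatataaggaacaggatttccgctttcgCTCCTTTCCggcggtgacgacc
Rps6, chr4:86857348-86857447, minus strand: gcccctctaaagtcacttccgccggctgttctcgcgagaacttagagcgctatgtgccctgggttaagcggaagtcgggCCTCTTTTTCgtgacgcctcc

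A run of at least 8 C and T bases within 20 bases of the start was found in 44.8% of the members' 67 windows, against 16.1% of all 32851 windows in the table. The letters CTTTCC or CTTTTC stood on the coding strand within 50 bases of the start in 44.8% of the members' windows and 8.11% of all windows, and these matches overlap the C and T runs. Searched on both strands over the whole window of 250 bases before to 50 bases after the start, CCGGAA, the core that ETS factors bind, was present in 49.3% of the members' windows and 14.9% of all. ATGGCG, the core of YY1 sites, was present in 29.9% against 8.93%, and the E-box CACGTG in 11.9% against 7.15%. TATAA was about as frequent as elsewhere, at 23.9% against 24.9%. The windows of the members also held more G and C, with a median of 58.7% against 52.7%. Rps27 and the window shown for its paralogue Rps27l both carried CCGGAA and a C and T run of 9 bases near the start. The other window of Rps27l had no CCGGAA and a run of 4 bases. A match describes letters in a window and no binding.

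The libraries held 19833803 to 25494722 recovered reads. The heterozygous libraries correlated at 0.988 to 0.989 with each other across genes, the controls at 0.952, and control 1 lay farthest from the heterozygous libraries (0.927 to 0.930). Arid1b read 1510 and 1730 normalized counts in controls 1 and 2 and 1102, 1145 and 1003 in heterozygous 1, 2 and 3. The groups did not overlap, and the log2 fold change was -0.58 (SE 0.14) with a limma adjusted p of 0.0701. Markers of neural stem and progenitor cells summed to 155914 to 223484 normalized counts, with none of 8 at 0. They differed in sign, with a median log2 fold change of -0.46. Nes, Vim and Fabp7 were above 0, and Sox2, Pax6, Hes5, Sox9 and Slc1a3 below 0. Only Hes5 (-1.49, limma adjusted p = 0.0475) had an adjusted p under 0.05, where 0.944% of all genes tested were lower at that threshold. Cells of a mouse filled more than 1 well, and the labels leave unsaid if the libraries are from separate mice. The p-values then cover only how these 5 libraries vary, which may be technical.

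The members were among the most abundant transcripts. Of the 77, 64 stood among the 500 genes with the highest mean, and 68 had a mean of at least 5000 normalized counts. Per kilobase of the shortest principal coding transcript, which 76 members have, the median level was 15412 normalized counts, with quartiles of 11678 and 20423. Rplp1, an acidic protein of the stalk that recruits elongation factors, was highest per kilobase (38171), followed by Rps2 of the mRNA entry channel (34761) and Rps14 (31693). At the lower end were Rps10 (206), Rpl13a (481), Rpl23a (1142) and Rpl35 (1393). The listed levels of the members thus differed widely even per length. Of the members, 59 have rows for processed pseudogenes of the same name in the table, and how reads matching several copies were counted is not given in the sources used here, so levels of these genes are uncertain. For Rps10, with 102 normalized counts on average, the row Rps10-ps2 alone held 66.1. The members just inside the threshold of 100 were Rps10, Rps4l (434) and Rpl13a (504). Just outside were Rpl6l (18.0), Rpl24 (14.2) and Rpl3l (5.20), followed by Rpl32l (4.83), Rpl39l (0.233) and Rpl10l, which was listed at 0 in every library. Rpl3l is known as the muscle paralogue of Rpl3, and Rpl10l and Rpl39l as testis paralogues of Rpl10 and Rpl39.

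The members moved together from library to library. As a share of all recovered reads they made up 4.89% and 3.60% in controls 1 and 2, and 3.34%, 3.17% and 4.12% in heterozygous 1, 2 and 3. The shares averaged 4.25% ± 0.911 (SD, n = 2) in controls and 3.54% ± 0.505 (SD, n = 3) in heterozygous libraries, and the groups overlapped because heterozygous 3 lay above control 2. In bulk RNA, fewer cells of a type and less RNA per cell cannot be told apart, and a share also depends on all other transcripts.

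**Figure D1:**
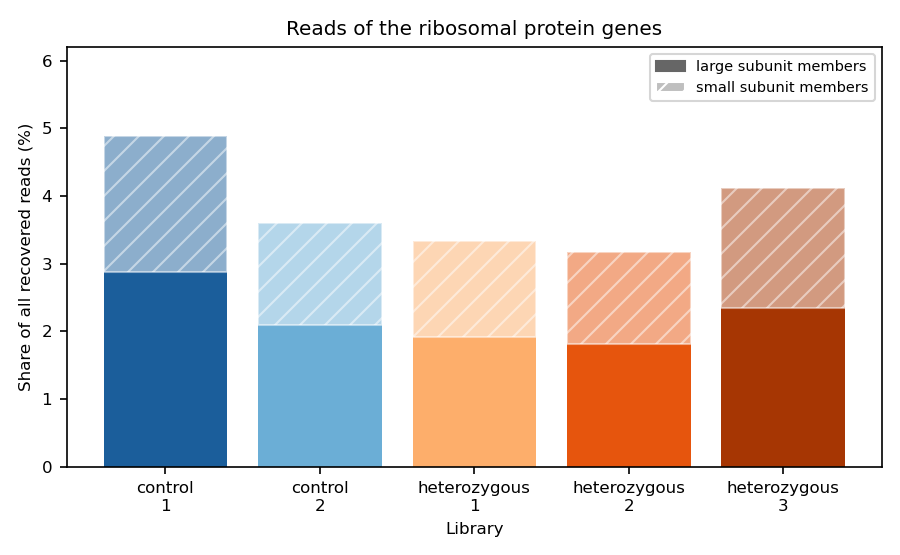
Share of all recovered reads, in percent, that fell on the 77 ribosomal protein genes in each of the 5 libraries, stacked by subunit (solid, large; hatched, small). Control 1 is highest at 4.89% and heterozygous 2 lowest at 3.17%, and heterozygous 3 at 4.12% lies above control 2 at 3.60%.

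Control 1 held the highest value of 66 members, heterozygous 3 of 10 and control 2 of 1 (Rpl13a). Heterozygous 2 held the lowest value of 70 members, heterozygous 1 of 5, and control 2 of Rps27l and Rps4l. The median deviation of the members from their own 5-library means was 0.40 log2 units in control 1, 0.13 in heterozygous 3, -0.06 in control 2, -0.20 in heterozygous 1 and -0.28 in heterozygous 2. Within the control group, control 1 exceeded control 2 for 75 of 77 members, by a median of 0.45 log2 units, where 48.5% of all 16411 genes tested were higher in control 1. Within the heterozygous group, heterozygous 3 exceeded both others for 77 of 77 members, by medians of 0.32 and 0.38. Small and large subunits shared this order. The summed small-subunit signal was 0.704 and 0.727 of the large-subunit signal in controls 1 and 2, and 0.746, 0.744 and 0.757 of it in heterozygous 1, 2 and 3.

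**Figure D2:**
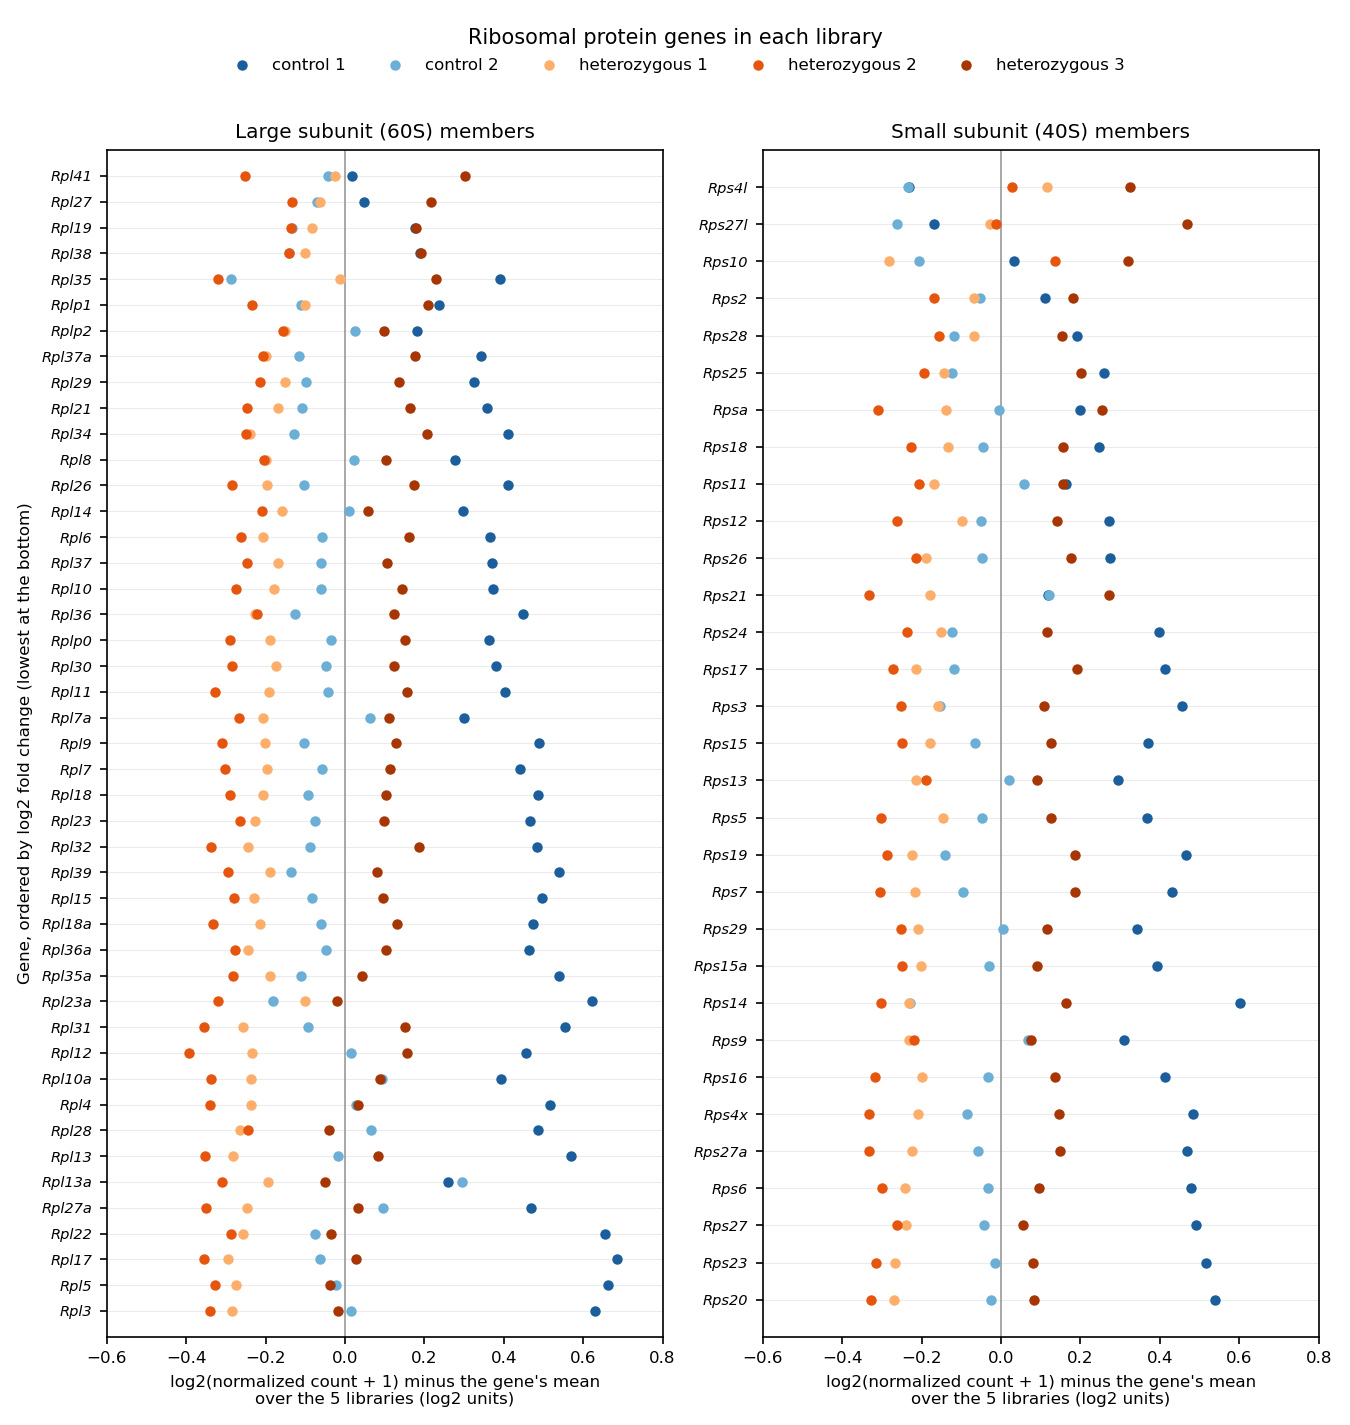
Each row is 1 of 76 ribosomal protein genes, split by subunit and ordered by fold change, and each point is 1 library, as the log2 deviation of its normalized count from the mean of the 5 libraries for that gene. Control 1 stands farthest right for 65 of these genes and heterozygous 2 farthest left for 69, while Rps4l and Rps27l have both controls at the left.

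Between genotypes, no member passed the test. In the limma fit over all 16411 genes with a mean of at least 10, with Benjamini-Hochberg adjustment at 0.05, 0 of 77 members were called higher and 0 lower, where 1.90% of all genes tested were called higher and 0.944% lower (2.84% in either direction). The smallest adjusted p among members was 0.131 (Rpl13a). At an unadjusted p under 0.05 there were 3 members, Rpl13a, Rpl27a and Rpl28, against 26.1% of all genes. edgeR called 0 members (5 at an unadjusted p under 0.05) and 2.49% of all genes. DESeq2 called 0 (9 unadjusted) and 14.4% of the 16091 genes it tested. The authors' deposited table listed 0 members at an adjusted p under 0.05, with a smallest value of 0.117. Of the 17433 genes tested there, 12.3% were listed at that threshold.

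The log2 fold change, heterozygous over control, was below 0 for 72 of 77 members, against 49.5% of all genes tested. Its median was -0.28 (0.008 over all genes), with quartiles of -0.35 and -0.19 and a range of -0.54 (Rpl3) to 0.39 (Rps4l). The median was -0.26 for small-subunit and -0.32 for large-subunit members. The 95% interval of the fold change included 0 for 74 members, and for 71 it excluded a 2-fold fall. The median rested on control 1. Without it the median was -0.05 with 53 members below 0 and 0 called. Without control 2 it was -0.51 with 74 members below 0, and 51 were called lower, in a fit that called 23.5% of all genes tested lower (3855 of 16411). Without heterozygous 3 it was -0.40.

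**Figure D3:**
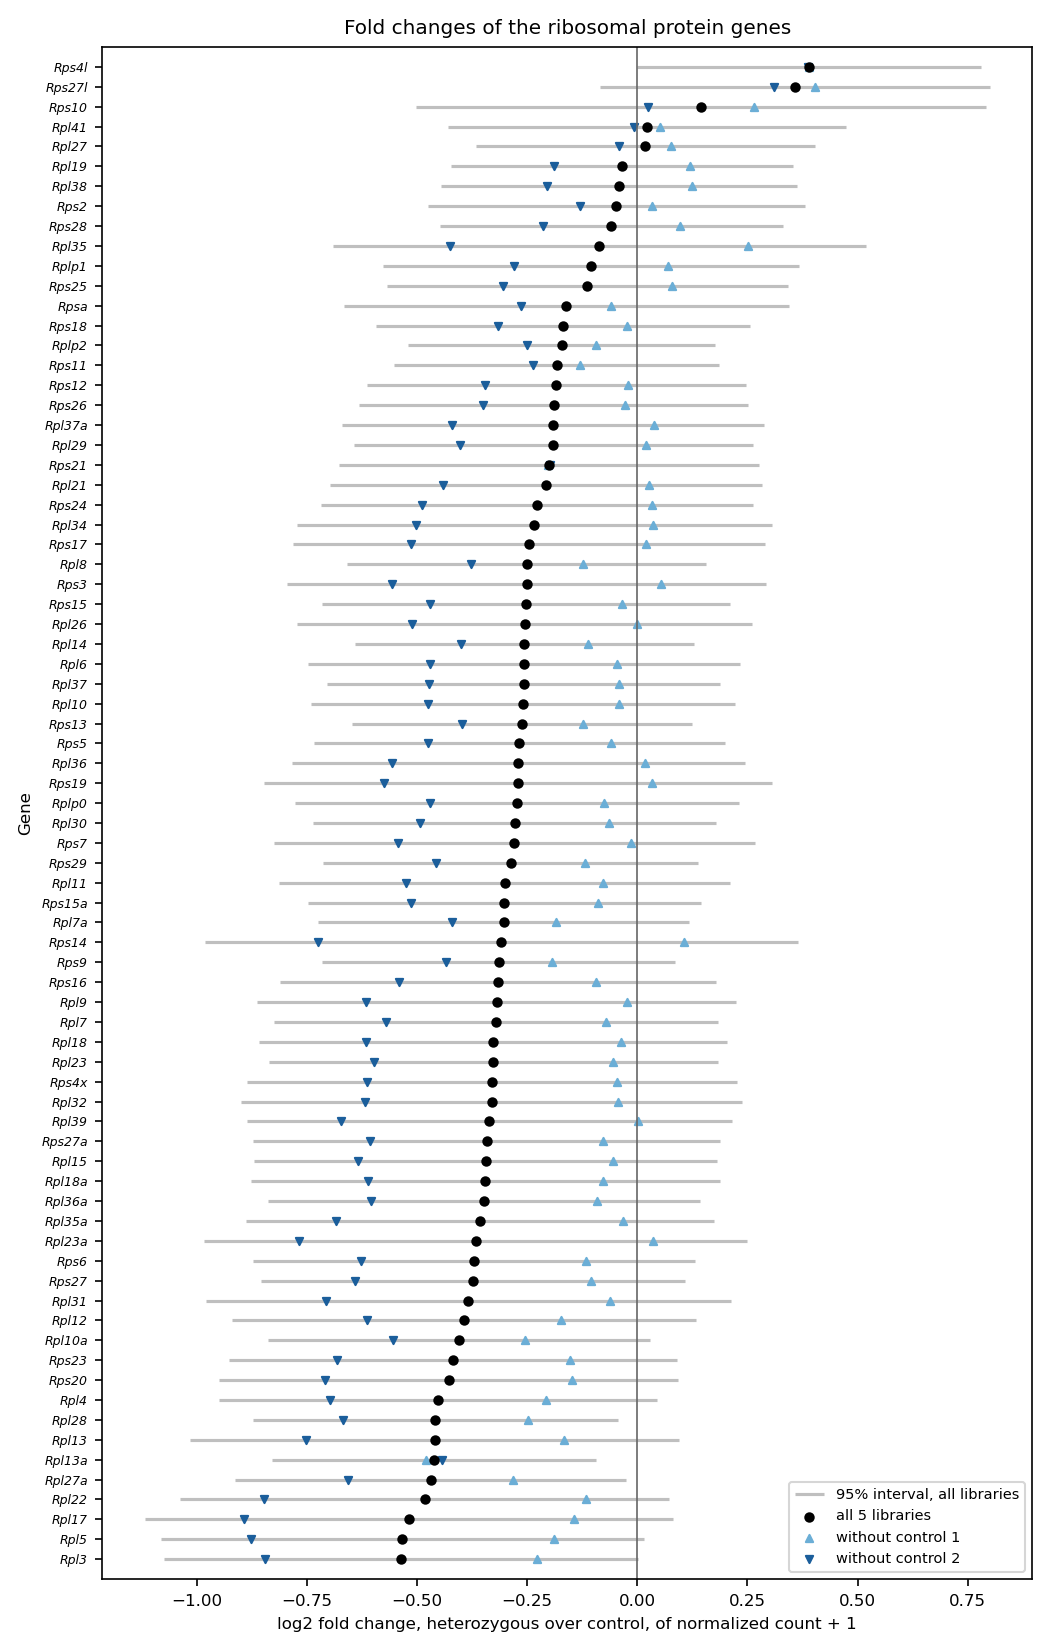
Log2 fold change of 76 ribosomal protein genes, heterozygous over control, from all 5 libraries (black, with the 95% interval in grey) and with control 1 or control 2 left out (blue triangles). The values without control 1 cluster near 0 with a median of -0.05 and those without control 2 centre on -0.51, while the triangles of Rpl13a and Rps4l nearly coincide with their black points.

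In 6 members, all of the large subunit, both controls lay above all 3 heterozygous libraries, a pattern seen in that direction in 23.3% of all genes tested. Rpl3 (ENSMUSG00000060036, mm10 chr15:80077791-80091868), which lies closest to the catalytic centre, read 30750 and 20069.6 normalized counts in controls 1 and 2 and 16307, 15690 and 19641 in heterozygous 1, 2 and 3. Control 2 and heterozygous 3 differed little, and control 1 stood alone. Its log2 fold change was -0.54 (SE 0.22, limma adjusted p = 0.192). Rpl5 (chr5:107900502-107909005), which carries the 5S rRNA, read 18727 and 11631 in controls and 9772, 9425 and 11519 in heterozygous libraries (log2 fold change -0.53, SE 0.23, limma adjusted p = 0.200). Again only control 1 was clearly apart. Rpl11, its partner in the 5S particle, read 19501 and 14304 in controls and 12910, 11733 and 16433 in heterozygous libraries, where heterozygous 3 exceeded control 2.

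Rpl13a (chr7:45125558-45128761), known in human myeloid cells to silence inflammatory mRNAs once phosphorylated and released from the ribosome, had controls close to each other and apart from the heterozygous libraries. It read 595 and 609 normalized counts in controls and 434, 401 and 479 in heterozygous libraries. Controls averaged 602 ± 10.5 (SD, n = 2) and heterozygous libraries 438 ± 39.5 (SD, n = 3), and the log2 fold change was -0.46 (SE 0.15, limma adjusted p = 0.131). The value was -0.48 without control 1 and -0.44 without control 2, and in the latter case alone it was called (limma adjusted p = 0.0357). Its listed level is low for a ribosomal protein gene, it hosts 4 snoRNA genes in its introns, and it overlaps the readthrough gene Gm45713, which was listed at 0 in every library.

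Rpl27a (chr7:109519147-109522367) read 15351 and 11851 normalized counts in controls and 9351, 8708 and 11358 in heterozygous libraries (log2 fold change -0.47, SE 0.18, limma adjusted p = 0.174). Rpl28 (chr7:4792874-4795066) read 13824 and 10333 against 8219, 8339 and 9599 (-0.46, SE 0.17, limma adjusted p = 0.162). Both are structural proteins of the large subunit, and in both the gap between the controls exceeded that between control 2 and heterozygous 3. Rpl10a (chr17:28328471-28331033), of the mobile L1 stalk that guides tRNAs out, read 11151 and 9061 against 7207, 6719 and 9029.6 (-0.41, SE 0.18, limma adjusted p = 0.212). Its control 2 and heterozygous 3 values were nearly equal. Rpl22, a non-essential RNA-binding protein of the large subunit, was at -0.48 and Rpl17, beside the peptide exit tunnel, at -0.52 on the log2 scale, and their groups overlapped.

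The 5 members with the highest means were Rps2, Rplp0, Rpsa, Rps3 and Rpl4, and their log2 fold changes ran from -0.45 to -0.05. Rps2 read 37301 and 33299 normalized counts in controls and 32949, 30734 and 39172 in heterozygous libraries (log2 fold change -0.05). Its highest and lowest library were both heterozygous. Rpsa, a protein of the small subunit also described as a laminin receptor, read 31840 and 27652 against 25214, 22400.3 and 33088 (-0.16). Rplp0, the base of the stalk, read 36250 and 27542 against 24762, 23072 and 31317 (-0.27), and its partners Rplp1 and Rplp2 were at -0.11 and -0.17. Rps3, at the mRNA entry, was at -0.25, and Rpl4, which lines the exit tunnel, at -0.45. The groups overlapped for each of these genes, and none was called.

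Members with roles outside bulk synthesis were not called either. Rps6, phosphorylated downstream of mTORC1, read 15444 and 10836 normalized counts in controls and 9371, 9007 and 11846 in heterozygous libraries (log2 fold change -0.37, SE 0.21, limma adjusted p = 0.299). Rps19, the gene most often mutated in human Diamond-Blackfan anaemia, read 21499 and 14109 against 13319, 12739.5 and 17705, a log2 fold change of -0.27, which was 0.03 without control 1. Rps27a, made as a fusion with ubiquitin, read 12106 and 8398 against 7480.2, 6946 and 9689 (-0.34). Rpl10, the X-linked protein that joins the large subunit last, was at -0.26. Fau, another fusion gene, which the symbol rule leaves out, read 10701 and 6831 against 6713, 6304 and 8075 (-0.29), in the same order of libraries. Rps3a1, which the rule also leaves out, read 22370 and 15188 against 14024, 13377 and 17236 (-0.32).

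At the upper end of the members were Rps4l, Rps27l, Rps10, Rpl41, Rpl27 and Rpl19. Rpl41, the smallest ribosomal protein, was at 0.02, Rpl27 at 0.02 and Rpl19 at -0.03 on the log2 scale, signs that turn with single libraries. Rps10, of the head of the small subunit and ubiquitinated when ribosomes collide, read 104 and 87.6 normalized counts in controls and 83.0, 111 and 127 in heterozygous libraries (0.14, SE 0.27), so its groups overlapped.

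Rps27l and Rps4l were the 2 members with all heterozygous libraries above both controls, a pattern found in that direction in 23.4% of all genes tested. Rps27l (chr9:66946086-66949516) encodes a close paralogue of Rps27 and is known in human cells as a p53 target. It read 4537 and 4254 normalized counts in controls and 5003, 5054 and 7048 in heterozygous libraries. The groups averaged 4395 ± 200.5 (SD, n = 2) and 5702 ± 1166 (SD, n = 3), and limma put the log2 fold change at 0.36 (SE 0.18, limma adjusted p = 0.265). Heterozygous 3 supplied much of this, and the value was 0.19 without it. Rps27 itself (chr3:90212522-90213651) ran the other way, with 9338 and 6441 in controls and 5627, 5533 and 6899 in heterozygous libraries (-0.37, SE 0.20, limma adjusted p = 0.281). Set against each other within a library, the ratio of Rps27l to Rps27 was 0.486 and 0.660 in controls and 0.889, 0.913 and 1.02 in heterozygous libraries. These ratios of normalized counts are not corrected for length, and reads shared by such close copies make both levels uncertain. The groups did not overlap, and the difference of 0.73 in log2 ratio was 0.51 without control 1 and 0.95 without control 2. The exact two-sided permutation test over the 10 arrangements gave p = 0.1, the smallest value this design allows, and 0.25 after adjustment over 5 paralogue pairs.

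Rps4l (chr6:148354656-148355598) resembles the X-linked Rps4x, and the GENCODE annotation lists it as a transcribed processed pseudogene rather than a coding gene. It read 365 and 365 normalized counts in controls and 465, 438 and 538 in heterozygous libraries (log2 fold change 0.39, SE 0.16, limma adjusted p = 0.191), and the value was the same within 0.01 whichever control was left out. It lies on the opposite strand to Tmtc1, which read 290 and 229 against 393, 336 and 239. Strand use in counting is not given in the sources used here, so reads of these overlapping genes cannot be told apart. Rps4x read 21673 and 14609 in controls and 13418, 12312 and 17179 in heterozygous libraries (-0.33). The ratio of Rps4l to Rps4x was 0.0169 and 0.0250 in controls and 0.0347, 0.0356 and 0.0313 in heterozygous libraries, with an exact permutation p of 0.1 (0.25 adjusted over the pairs). For the pairs Rpl22l1 and Rpl22, Rpl36al and Rpl36a, and Rpl7l1 and Rpl7 the exact permutation p was 0.4, 0.3 and 0.3.

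**Figure D4:**
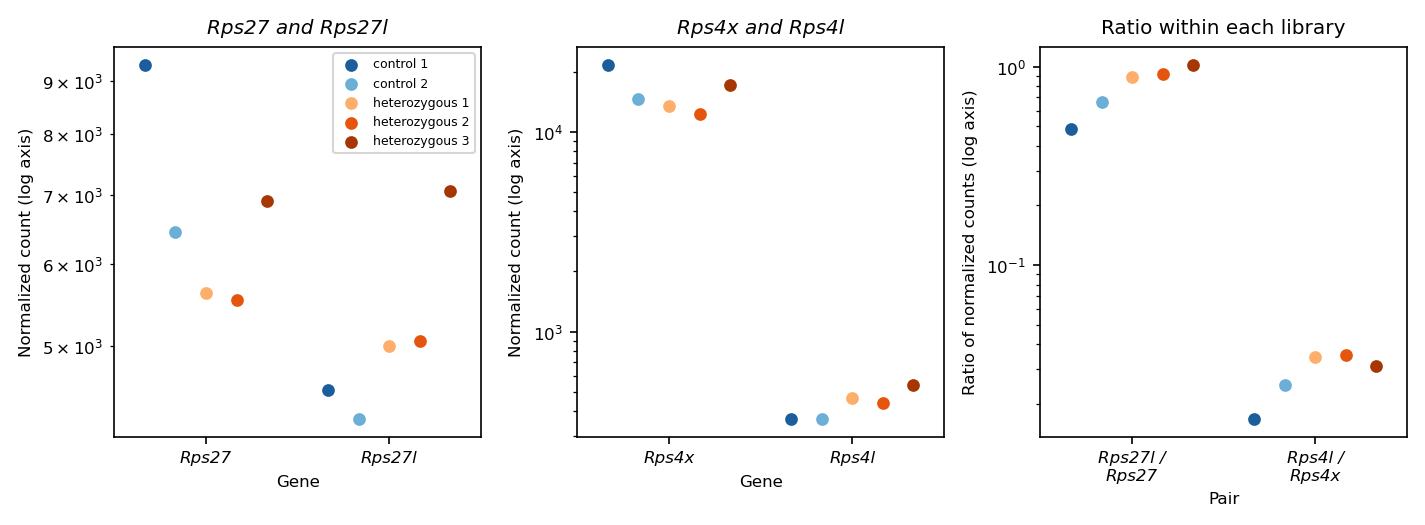
Normalized counts of Rps27 and Rps27l and of Rps4x and Rps4l in each library (log axes), and the ratio within each library at the right. In both pairs the ratio is lower in the 2 controls than in the 3 heterozygous libraries, from 0.486 to 1.02 for Rps27l over Rps27.

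The wider translation machinery was described from lists of known genes, with counts from the same limma fit. Other mRNAs known to carry a TOP stretch followed the members in part. The log2 fold change was below 0 for 20 of 28, and control 1 held the highest value of 16 and the lowest of 6. None of 28 was called, and their median log2 fold change was -0.26, which was -0.02 without control 1 and -0.50 without control 2. Eif4b, an mTORC1-regulated helper of the initiation helicase, read 18291 and 11054 normalized counts in controls and 7767, 7626 and 8268 in heterozygous libraries (-0.85, SE 0.22, limma adjusted p = 0.0852). Its groups did not overlap. Pabpc1, the poly(A)-binding protein, was at -0.50 and the initiation factor gene Eif3f at -0.49, both without overlap. Vim, an intermediate filament of progenitors whose mRNA is on the list, had the opposite sign at 0.75. All heterozygous libraries lay below both controls for 5 of the 28 and above both for 3, patterns seen in 23.3% and 23.4% of all genes tested.

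Genes of ribosome biogenesis, which process rRNA and assemble the subunits in the nucleolus, were lowest in control 1, where the members were highest. None of 41 was called, and 38 had a log2 fold change above 0, with a median of 0.33. Control 1 held the lowest value of 35 of the 41, with a median deviation of -0.49, and without control 1 the median fold change was 0.004. Heterozygous 3 had a median deviation above 0 in both lists, 0.13 for the ribosomal protein genes and 0.22 for the biogenesis genes. Nop2, an rRNA methyltransferase, read 714 and 1420.2 normalized counts in controls and 1588, 1630.2 and 1857 in heterozygous libraries (0.74, SE 0.28, limma adjusted p = 0.167). Nmd3, the export adaptor of the large subunit, read 677 and 858 against 1012, 1067 and 1136 (0.49, SE 0.16, limma adjusted p = 0.122). In both, control 1 was lowest. None of 14 RNA polymerase I genes was called (median 0.10).

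**Figure D5:**
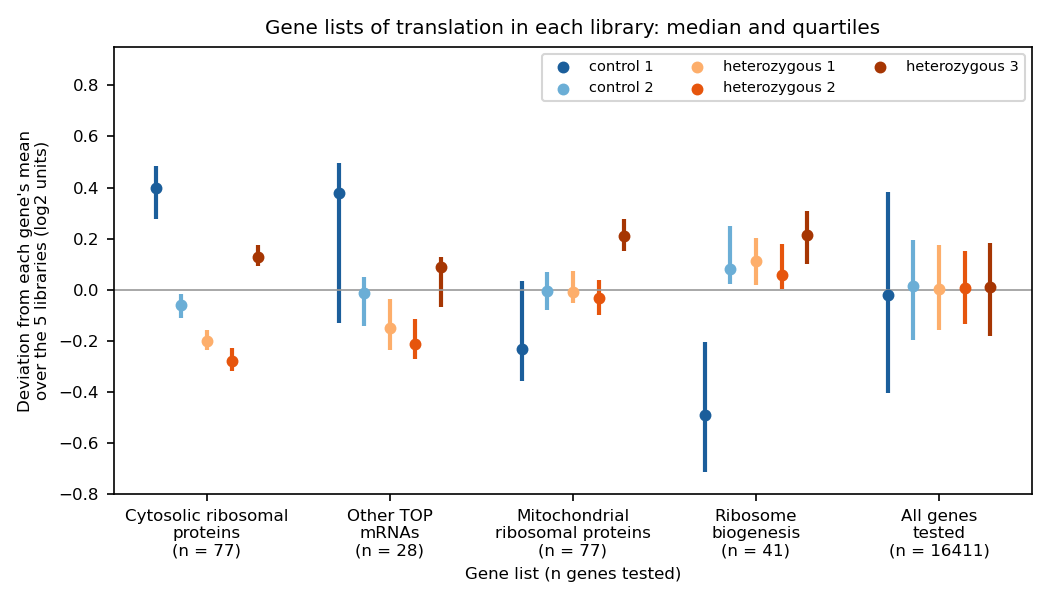
Median (point) and quartiles (bar) of the log2 deviation of each gene from its 5-library mean, by library, for 4 gene lists and all 16411 genes tested. The cytosolic ribosomal proteins and other TOP mRNAs are highest in control 1 (0.40 for the former), whereas ribosome biogenesis genes are lowest there (-0.49).

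Mitochondrial ribosomal proteins, which are nuclear genes for a separate ribosome, shared the pattern only in part. The median deviation was -0.23 in control 1, where the cytosolic members were highest. In heterozygous 1, 2 and 3 it was -0.008, -0.03 and 0.21, the same order as for the cytosolic members. Their median log2 fold change was 0.15, heterozygous 3 held the highest value of 63 of the 77 tested and control 1 the lowest of 47. Only Mrps6 was called, with 659 and 1251 normalized counts in controls and 2460.4, 2326 and 2868 in heterozygous libraries. It rose by 1.48 on the log2 scale (SE 0.27, limma adjusted p = 0.0489), and its adjusted p was 0.0535 in edgeR and 0.0513 over genes with a mean of at least 50.

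Regulators of ribosomal protein expression were mostly not called. Of 21 genes of mTORC1 and TOP control none was called, and the mTORC1 inhibitors Sesn2 and Ddit4 differed in sign. Sesn2 read 1635 and 2899 normalized counts in controls and 3975, 4227 and 4606 in heterozygous libraries (log2 fold change 0.97, limma adjusted p = 0.0795). Ddit4 read 11522 and 7782 against 5567, 5832 and 5845 (-0.72, limma adjusted p = 0.0832). Larp1, which holds TOP mRNAs, was at 0.30, and the S6 kinase gene Rps6kb2 at -0.52 without overlap.

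Myc, which drives ribosomal genes in many tissues, read 603 and 1936 normalized counts in controls and 1369, 1343 and 1774 in heterozygous libraries. It was lowest in control 1, and its log2 fold change of 0.46 (SE 0.46) did not exceed the spread. Of 11 genes of the Myc network, Mycl alone was called. It read 958 and 935 against 414, 405 and 403 and fell by 1.21 on the log2 scale (SE 0.13, limma adjusted p = 0.0258), a value of -1.20 without control 1 and -1.23 without control 2. None of 6 p90 S6 kinase genes and none of 8 ribosome rescue genes was called.

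In the axis from free ribosomal proteins to p53, 1 of 9 genes was called, Mdm2. It read 2668 and 2619 normalized counts in controls and 3986, 4014 and 4034 in heterozygous libraries and rose by 0.60 on the log2 scale (SE 0.11, limma adjusted p = 0.0489). Scaling by TMM, no filter on low values and edgeR each put its adjusted p just past the threshold, at 0.0503, 0.0630 and 0.0535, and library weights gave 0.146. Its homologue Mdm4 read 5175 and 5215 against 4008, 4268 and 3761 (-0.37, limma adjusted p = 0.126). Cdkn1a, a p53 target that arrests the cycle, read 13826 and 9702 against 12952, 14486 and 16591, with overlapping groups, as had Trp53 (-0.20). The calls of Mycl, Mdm2 and Mrps6 were each lost when any single heterozygous library was left out, with limma adjusted p-values between 0.184 and 0.259. Those fits called at most 1 of all 16411 genes, and the log2 fold changes in them were -1.23 to -1.21 for Mycl, 0.60 to 0.61 for Mdm2 and 1.40 to 1.55 for Mrps6.

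Markers of other cells differed between libraries as well. The 6 markers of cycling cells summed to 13693 and 37410 normalized counts in controls 1 and 2 and to 26024, 23089 and 26683 in heterozygous libraries, so control 1, the library highest in ribosomal protein reads, was lowest in these. None of the 6 was called. The 8 neuronal markers summed to 18367 and 24355 in controls and 42463, 35023 and 29192 in heterozygous libraries. Of these 8, 5 were called higher, against 1.90% of all genes tested. The 6 astrocyte markers summed to 81227 and 72894 in controls and 54861, 58177 and 46700 in heterozygous libraries. Of these 6, 1 was called lower, against 0.944% of all genes tested. No marker of these 3 lists was at 0 in any library. Microglial markers summed to 44.2 to 225. The 5 red cell markers summed to 3.61 to 15.1. Of these, Alas2 had reads in every library, and Hba-a1 and Hbb-bt were at 0 in every library. The part of these cell types in the ribosomal protein values was not tested.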

How the data were processed

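Members and gene lists were chosen with earlier results of these data known. Per the labels' protocols, RNA was extracted with Trizol and libraries made with an NEBNext Ultra kit for an Illumina Xten instrument. Per the submitters' processing notes, STAR, DESeq2 and mm10 were used. No tool version, annotation, counting tool or strand setting is given in the sources used here. Per library, the deposited signal is a read count per gene divided by 1 size factor, by the authors. All values were whole multiples of 1 read (100% within 0.001 read), which gave the reads behind each value. Beside these values stand a log2 fold change made by the authors, its standard error and Wald statistic (each a score here, as deposited) and the authors' p-value, raw and adjusted.

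Values were tested as log2(normalized count + 1) with limma 3.58.1 (trend, two-sided) in R 4.3.3 over genes with a mean of at least 10, heterozygous (3) against control (2). Fold changes on this scale understate changes of low genes. Alternatives used edgeR 4.0.16 and DESeq2 1.42.0 on the recovered reads, other scalings, pseudocounts, filters and library weights, a replicate block, and each library left out. The limma step was run on simulated reads in which each gene varied independently. The simulation held no shift shared by many genes of a library, so it cannot show how the fit behaves with such shifts. No library pair agreed within sampling noise (chi-square per gene of at least 8.04). Genes were located with GENCODE M21 (mm10, 1-based), which held 99.8% of the gene IDs. Genes given values in every library followed a rule of levels, fold changes, roles and thresholds, and other genes are named with fold changes alone. Counts and medians cover all 77 members, but 1 member is not reported here by name or plotted by itself. No library column was left unused.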

Additional observations from a re-analysis of the deposited data

How the results depend on the processing

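No member was called higher under any of the 18 alternatives, and none was called lower under 17 of them. The exception was leaving out control replicate 2, with 51 members called lower in a fit that called 3855 of all 16411 genes lower and 4465 higher, against 155 and 311 with all libraries. Leave-one-out counts of members called lower thus ran from 0 to 51. The fits that leave 1 control assume that it varies like the heterozygous libraries. The median log2 fold change of the members stayed below 0 throughout, between -0.25 and -0.29 with other scaling factors, -0.22 after quantile normalization, -0.35 with library weights, -0.30 in edgeR and DESeq2, and -0.51 to -0.05 with 1 library left out. The scalings moved the median of all genes by at most 0.04 from 0. The difference in the share of reads, -0.704 percentage points, ran from -1.35 to -0.0597 with 1 library left out.

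Replicate numbers are shared by 2 libraries of each group. Deviations of same-numbered libraries correlated at 0.0279 (number 1) and -0.0399 (number 2). With 2 controls this check rests on the single difference between them, so it cannot decide whether the numbers pair the samples. With the replicate block the members' median was -0.40 with 0 called, over all genes 0 were called higher and 1 lower, and the calls of Mycl, Mdm2 and Mrps6 were lost. Under the block the sign turned for Rpl27 (-0.087), Rpl41 (-0.13) and Rpl36al (-0.023).

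Library weights turned the sign of Rpl27 (-0.042), Rpl41 (-0.067) and Rpl36al (-0.012), and quantile normalization that of Rpl36al (-0.12). Among the genes picked by the rule of levels, fold changes, roles and thresholds, log2 fold changes crossed 0 for 12 with 1 library left out. The ranges were -0.61 to 0.033 for Fau, -0.33 to 0.14 for Gcn1l1, -0.19 to 0.12 for Rpl19 and -0.087 to 0.088 for Rpl27. Rpl36al ran from -0.083 to 0.28, Rpl41 from -0.13 to 0.15, Rpl7l1 from -0.10 to 0.59 and Rplp1 from -0.28 to 0.069. Rps19 ran from -0.58 to 0.032, Rps2 from -0.15 to 0.034, Rps3 from -0.56 to 0.053 and Rps6ka6 from -0.16 to 0.72. Members outside that rule crossed 0 as well. Without control 1, 53 of the 77 members were below 0, against 72 with all libraries. The cause was not tested. Depth was at least 19833803 reads per library, and 68 members had a mean of at least 5000 normalized counts.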

Other observations

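Rows for processed pseudogenes of ribosomal proteins numbered 289, of which 179 had reads and 44 were tested. None was called by limma, at an unadjusted p under 0.05 there were 0, and they held 0.0094% to 0.0131% of reads per library. The most abundant was Rps16-ps2, with 197 and 124 normalized counts in controls and 146, 122 and 164 in heterozygous libraries. Control 1 exceeded control 2 in 34 of the 44 tested, as it did in 75 of the 77 members.

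Of the members, 22 overlap a gene on the opposite strand. For Rpl3 this is Syngr1, a synaptic vesicle gene, which ran against it with 1624.5 and 1236 normalized counts in controls and 2411, 2068 and 1923 in heterozygous libraries (log2 fold change 0.58, limma adjusted p = 0.108). Fam69a, opposite Rpl5, was at 0.24 and Ube2s, opposite Rpl28, at 0.32 on the log2 scale, where the members were at -0.53 and -0.46. Tlcd1, opposite Rpl23a, read 923 and 961 in controls and 659, 599 and 696 in heterozygous libraries, with no overlap (-0.53, limma adjusted p = 0.0843). Across the 76 members with a coding transcript, fold change and transcript length had a Spearman correlation of -0.36. These genes share the same libraries and are not independent, so the value is a description.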
